A study of Neurospora crassa with 18 samples.

Results

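The genes described here are nuclease genes of *Neurospora crassa*, whose products can take nucleic acids apart, and a neighbour of one of them. NCU09525 encodes a deoxyribonuclease that acts outside the cell, *grn* (NCU01045) encodes a ribonuclease of the T1 type, and *nuc-14* (NCU09788) encodes a nuclease. NCU16971 lies next to *grn* and has no annotation in the sources used here. They were picked by their gene numbers, with earlier results of these data known. The paper already names NCU09525, *grn* and *nuc-14* among genes raised by starvation and lower in the *nuc-1* deletion. Counts of these genes set beside shares of all genes are therefore descriptions, not tests. The genes make up 4 of 9774 genes, or 5 of 10697 rows because *grn* is listed on 2 rows. Their levels were followed in all 18 libraries of mycelium that had been grown in phosphate-rich Vogel's medium, washed, and shifted to Fries medium with or without phosphate. Experiment 1 held wild type (*mat A*, FGSC 2489) after 4 h at 0 mM phosphate and the same strain after 4 h at 7 mM phosphate. Experiment 2 held Δ*nuc-1* (*nuc-1*::HygR, *mat a*, FGSC 11448) and wild type (*mat A*, FGSC 2489), both after 4 h at 0 mM phosphate. Experiment 3 held Δ*nuc-3* (*nuc-3*::HygR, *mat a*, FGSC 11356) and wild type (*mat a*, FGSC 4200), both after 12 h at 0 mM phosphate. Each condition had 3 libraries from independently inoculated cultures, and each mutant was 1 deletion strain. Δ*nuc-1* and its wild type also differed in mating type, so deletion and mating type cannot be told apart in Experiment 2.

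Nucleic acids hold much of the phosphate of a cell and of decaying matter. Secreted nucleases cut DNA and RNA outside the hypha into nucleotides, phosphatases and nucleotidases then strip the phosphate, and permeases carry it in. In *N. crassa* the name *nuc* goes back to mutants that could not use nucleic acids as their phosphorus source. NUC-1 is the basic helix-loop-helix activator of the phosphate starvation response, NUC-2 is the cyclin-dependent kinase inhibitor that keeps NUC-1 active when phosphate is short, and NUC-3 is the transcription factor examined in Experiment 3. Ribonucleases of the T1 type cut single-stranded RNA after guanosine. The annotation of *nuc-14* places it among the endonuclease, exonuclease and phosphatase proteins, a large fold that holds both nucleases and phosphatases.

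Levels are given as TPM, the transcript abundance that Salmon reports, which is a share of the library adjusted for transcript length and adds up to the same total in each library. The depth behind a value is unknown, so precision is described by the spread between 3 libraries. For tests, median-of-ratios factors between 0.849 and 1.23 put the libraries of an experiment on one scale, and fold changes are ratios of mean rescaled TPM. The log2 fold changes, their standard errors (SE) and Benjamini-Hochberg adjusted p-values come from limma on log2(TPM + 1) over all genes tested. A call required an adjusted p under 0.05, a change of 4-fold or more (2-fold or more for Δ*nuc-3*), and a mean of 10 TPM or more, as deposited, in one of the conditions. Correlations between libraries of one condition ran from 0.972 to 0.996, and no pair of libraries held identical values. The deleted genes followed the labels: *nuc-1* had 1.87 to 2.25 TPM in Δ*nuc-1* and 23.4 to 41.3 TPM in its wild type, and *nuc-3* had 0.397 to 1.46 TPM in Δ*nuc-3* and 108 to 227 TPM in its wild type.

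Phosphate starvation raised 3 of the 4 genes by at least 23-fold within 4 h. NCU09525 rose 50.1-fold, *grn* rose 40.3-fold and *nuc-14* rose 23.2-fold, while NCU16971 did not pass the test. With TPM as deposited the 3 folds were 68.7, 55.2 and 31.6. The scaling factors were 1.13 to 1.23 in the 0 mM libraries and 0.849 to 0.868 in the 7 mM libraries. Of all 8396 genes tested, 315 were called higher, which is 3.75%. Ranked by log2 fold change, the 3 genes stood 17th, 21st and 40th from the top.

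The deoxyribonuclease gene NCU09525 had 2169, 1694 and 1798 TPM in the 0 mM libraries, against 30.3, 28.8 and 23.3 TPM in the 7 mM libraries. Every starved library lay far above every library with phosphate, and the spread within each condition was small (coefficient of variation 13.2% at 0 mM and 13.5% at 7 mM). The log2 fold change was 5.61 (SE 0.116, adjusted p = 1.5e-07). Among all genes of a starved library NCU09525 ranked between 44 and 63, whereas at 7 mM it sat between the percentiles 56.0 and 63.2.

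The ribonuclease gene *grn*, as the sum of its rows, was the most abundant of the 4 genes in both conditions. It reached 3837, 2812 and 3371 TPM in the 0 mM libraries, against 67.6, 55.4 and 58.4 TPM in the 7 mM libraries. Its log2 fold change was 5.31 (SE 0.114, adjusted p = 1.57e-07), and it ranked between 19 and 29 among all genes of a starved library.

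The nuclease gene *nuc-14* was expressed at a lower level in both conditions. It had 138, 145 and 180 TPM in the 0 mM libraries, against 5.58, 4.89 and 4.16 TPM in the 7 mM libraries, with no overlap. The log2 fold change was 4.31 (SE 0.143, adjusted p = 7.24e-07). Together NCU09525, *grn* and *nuc-14* took 0.465% to 0.614% of all TPM in the 0 mM libraries and 0.00858% to 0.0103% in the 7 mM libraries.

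NCU16971 stood apart from its neighbour *grn*. It had 13.9, 15.9 and 12.7 TPM in the 0 mM libraries, against 12.7, 11.6 and 12.0 TPM in the 7 mM libraries. The difference was small and its sign depended on the scaling. The log2 fold change was -0.21 (SE 0.098, adjusted p = 0.0978) after rescaling and 0.21 (adjusted p = 0.0712) with TPM as deposited, where the median of all genes was itself shifted by 0.41. Without replicate 2 of the 0 mM libraries the rescaled value was -0.31 with an adjusted p of 0.00838, still under the 4-fold threshold.

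**Figure D1:**
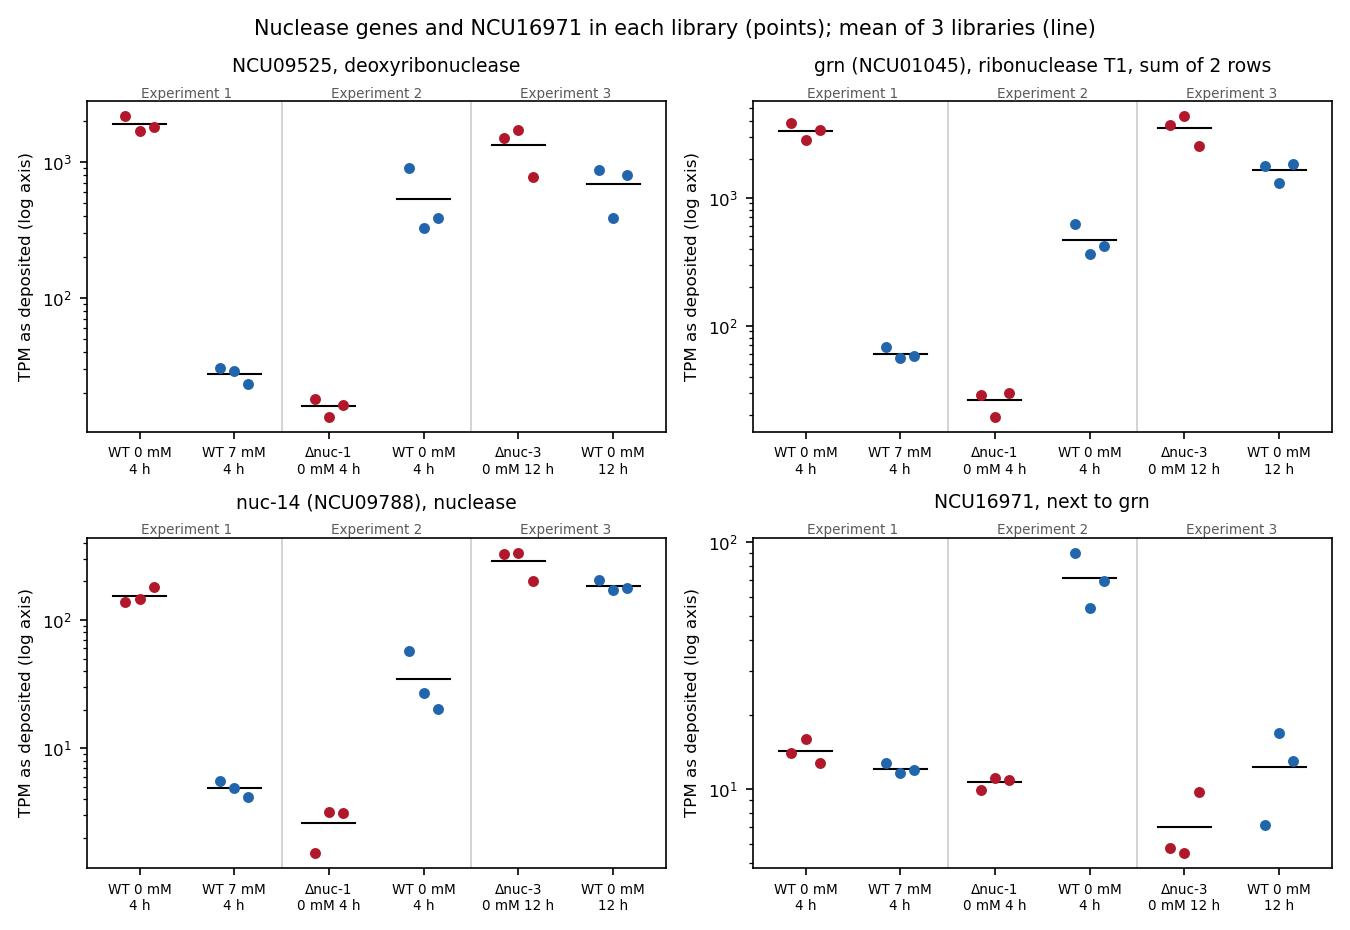
Deposited TPM of the 4 genes in each of 18 libraries on log axes, with red points for the 0 mM or mutant libraries of an experiment and blue points for the 7 mM or wild-type libraries they were set against; lines mark means of 3 libraries. For NCU09525, *grn* and *nuc-14*, every starved library outside Δ*nuc-1* lay above every Δ*nuc-1* and 7 mM library. In the wild type of Experiment 2, *nuc-14* had only 20.3 to 57.7 TPM. NCU16971 was highest in that wild type, at 53.7 to 90.3 TPM.

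The second comparison asked which genes needed NUC-1 during starvation. All 4 genes were called lower in Δ*nuc-1*, against 66 of the 8037 genes tested, or 0.821%. The deoxyribonuclease gene NCU09525 was 28.9-fold lower, *grn* was 15.7-fold lower, *nuc-14* was 11.2-fold lower and NCU16971 was 5.85-fold lower. These 4 calls held whichever of the 6 libraries was left out.

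NCU09525 fell to 18.2, 13.4 and 16.3 TPM in the Δ*nuc-1* libraries, against 895, 326 and 390 TPM in the wild-type libraries. The wild-type libraries differed more than in Experiment 1 (coefficient of variation 58.1%), and replicate 1 stood far above the other two. The log2 fold change was -4.66 (SE 0.314, adjusted p = 0.000112). Without that wild-type library the gene was still called, at a log2 fold change of -4.28.

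For *grn* the Δ*nuc-1* libraries had 28.8, 19.4 and 29.9 TPM, against 626, 365 and 421 TPM in the wild-type libraries. The log2 fold change was -3.92 (SE 0.232, adjusted p = 4.09e-05). Replicate 1 was again the highest wild-type library, but here the 3 lay closer together (coefficient of variation 29.3%).

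The *nuc-14* gene had 1.52, 3.22 and 3.13 TPM in the Δ*nuc-1* libraries, against 57.7, 26.8 and 20.3 TPM in the wild-type libraries. Its log2 fold change was -3.04 (SE 0.343, adjusted p = 0.00131). On a log2(TPM + 1) scale the fold change of a gene this low in the mutant is understated. The Δ*nuc-1* values placed *nuc-14* between the percentiles 23.1 and 29.4 of a library, against 57.5 and 74.4 in wild type.

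NCU16971 fell to 9.86, 11.1 and 10.9 TPM in the Δ*nuc-1* libraries, against 90.3, 53.7 and 69.6 TPM in the wild-type libraries. Its log2 fold change was -2.42 (SE 0.191, adjusted p = 0.000247). In the 3 mutant libraries its level lay just below the 11.6 to 15.9 TPM seen in both conditions of Experiment 1, and its wild-type level was the one that stood out. Reads, sequencer and centre differed between Experiments 1 and 2, so this side-by-side reading carries no test.

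The third comparison asked what NUC-3 did to these genes after 12 h without phosphate. The means of NCU09525, *grn* and *nuc-14* were 1.58 to 2.17 times as high in Δ*nuc-3* as in wild type, and none of the 4 genes was called. The paper, which used DESeq2 in place of limma on TPM, lists *grn* among the genes at least 2-fold higher in Δ*nuc-3*. Its methods state the rule for this list as a 2-fold change and 10 TPM in either condition. That rule names no adjusted p. Here *grn* met the fold and level thresholds and missed the one on the adjusted p. Among the 8005 genes tested, 51 (0.637%) were called higher and 7 (0.0874%) lower. With limma, 0 of the 4 genes had an adjusted p under 0.05 (1.41% of all genes were higher at this threshold and 0.312% lower). Limma with a robust spread and a single fit over all 18 libraries each called 1, which was *grn*.

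The ribonuclease gene *grn* came nearest to the threshold. It had 3719, 4323 and 2523 TPM in the Δ*nuc-3* libraries, against 1774, 1297 and 1825 TPM in the wild-type libraries, so the lowest mutant library still lay above the highest wild-type library. The ratio was 2.17 and the log2 fold change 1.10 (SE 0.204, adjusted p = 0.0545). The adjusted p was 0.0495 with the robust spread, 0.00482 with the fit over 18 libraries, and between 0.0659 and 0.191 when 1 library was left out.

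NCU09525 had 1491, 1708 and 780 TPM in the Δ*nuc-3* libraries, against 876, 386 and 795 TPM in the wild-type libraries. Replicate 3 of the mutant overlapped the wild type, and the ratio of 1.96 (log2 fold change 0.98, SE 0.354) had an adjusted p of 0.183. Leaving out 1 library at a time moved the ratio between 1.64 and 2.32.

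The *nuc-14* gene had 328, 334 and 202 TPM in the Δ*nuc-3* libraries, against 204, 171 and 176 TPM in the wild-type libraries. The groups overlapped by a narrow margin, and the ratio of 1.58 (log2 fold change 0.63, SE 0.171) had an adjusted p of 0.119. For NCU16971 the values were 5.79, 5.50 and 9.71 TPM in the Δ*nuc-3* libraries, against 7.14, 16.8 and 12.96 TPM in the wild-type libraries. This was the only one of the 4 genes with a lower mean in the mutant, at a ratio of 0.573 (log2 fold change -0.69, SE 0.363, adjusted p = 0.326).

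Within Experiment 3 the same libraries were low for several of these genes. Replicate 3 of Δ*nuc-3* had the lowest NCU09525, *grn* and *nuc-14* of its group, and replicate 2 of wild type had the lowest of its group for the same genes. The alkaline phosphatase gene *pho-2* followed, with 9471, 10795 and 6544 TPM in the Δ*nuc-3* libraries, against 4589, 2309 and 3416 TPM in the wild-type libraries. NCU16971 went the other way, with the highest value of each group in these libraries. It had 9.71 TPM in replicate 3 of Δ*nuc-3* and 16.8 TPM in replicate 2 of wild type. So did NCU09789, a gene that overlaps *nuc-14*, at 211 TPM and 329 TPM. What sets these libraries apart was not tested.

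**Figure D2:**
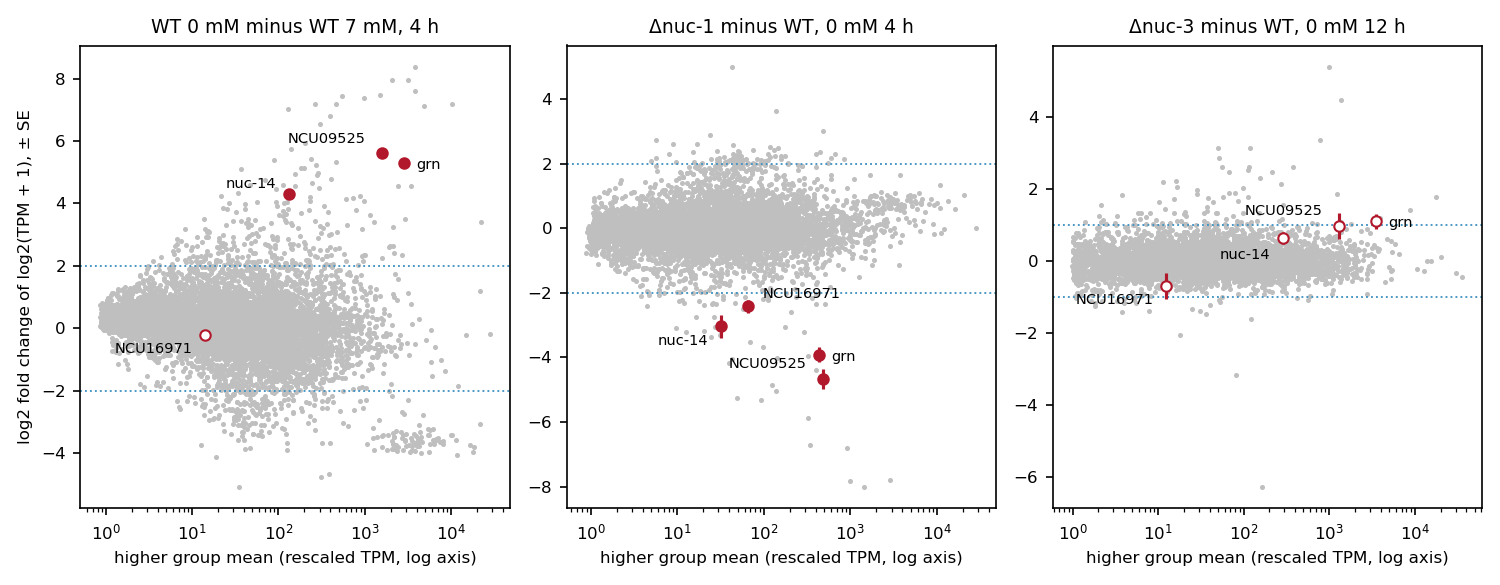
The log2 fold change of each gene tested (grey) against its higher group mean in rescaled TPM on a log axis, for the 3 comparisons, with the 3 nuclease genes and NCU16971 in red (filled where called, open where not, bars showing the SE) and dotted lines at the fold threshold. NCU09525, *grn* and *nuc-14* stood at 5.61, 5.31 and 4.31 in starvation and at -4.66, -3.92 and -3.04 in Δ*nuc-1*; in Δ*nuc-3* they stood at 0.98, 1.10 and 0.63.

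The rows of *grn* were also fitted separately. RefSeq lists 2 transcripts for the gene, and the deposited table does not name the transcript of a row, so they are called row 1 and row 2 in table order. In starvation, row 1 had 1193 to 1454 TPM at 0 mM and 23.6 to 27.1 TPM at 7 mM, a 37.4-fold rise. Row 2 had 1619 to 2383 TPM at 0 mM and 31.3 to 40.8 TPM at 7 mM, a 42.4-fold rise. Both were called lower in Δ*nuc-1*, with log2 fold changes of -3.73 for row 1 and -3.99 for row 2 (adjusted p = 4.07e-05 and 0.000206, limma).

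In Δ*nuc-3* the rows fell on different sides of the threshold. Row 1 had 1924, 2130 and 1235 TPM in Δ*nuc-3*, against 983, 729 and 1005 TPM in wild type, a ratio of 1.96 with an adjusted p of 0.0692. Row 2 had 1795, 2193 and 1288 TPM in Δ*nuc-3*, against 792, 568 and 820 TPM in wild type, a ratio of 2.44 with an adjusted p of 0.0331, and was called higher. The difference between the rows was not tested.

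The balance between the rows moved with the experiment. Row 2 was 1.36 to 1.64 times row 1 in the 0 mM libraries and 1.15 to 1.52 times in the 7 mM libraries of Experiment 1. In Experiment 2 it was 1.09 to 3.17 times row 1 in Δ*nuc-1* and 1.71 to 2.58 times in wild type. In Experiment 3 it was 0.933 to 1.04 times row 1 in Δ*nuc-3* and 0.779 to 0.816 times in wild type. The starved wild types of Experiments 1 and 2 shared single-end reads, time and strain, but differed in sequencer, read length and centre. Experiment 3 used paired-end reads and also differed from both in sequencer, read length, time and wild-type strain. These factors cannot be told apart here.

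On assembly NC12, *grn* covers chromosome V 2755113 to 2756491 and NCU16971 covers chromosome V 2756230 to 2757443, so the genes share 262 bp. Strand was not given in the sources used here, and reads from the shared stretch cannot be told apart. NCU16971 stood at 0.363% to 0.565% of the *grn* level in the 0 mM libraries of Experiment 1 and at 18.8% to 21.0% in the 7 mM libraries. In Experiment 2 it stood at 34.3% to 57.3% of *grn* in Δ*nuc-1* and at 14.4% to 16.5% in wild type. In Experiment 3 the share was 0.127% to 0.385% in Δ*nuc-3* and 0.403% to 1.29% in wild type. The ratio thus differed between conditions within each experiment. The part of shared reads in the Δ*nuc-1* difference of NCU16971 was not tested.

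**Figure D3:**
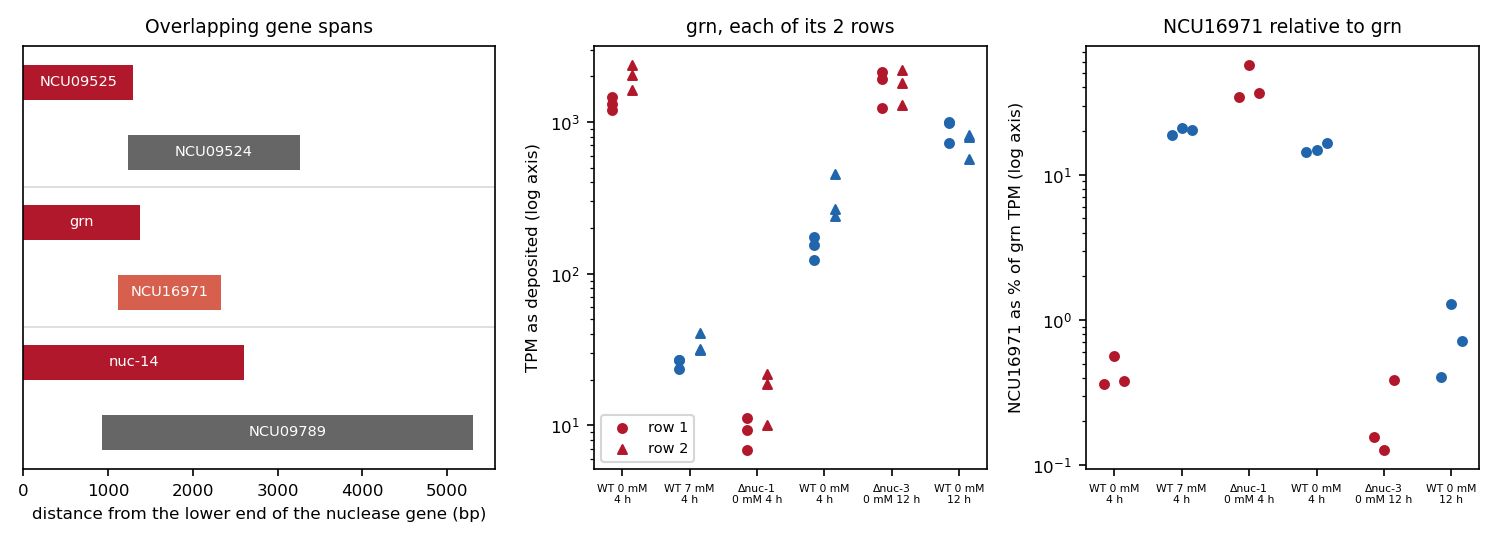
Left, spans of the 3 nuclease genes (red) and their overlapping neighbours (grey; NCU16971 light red) in bp from the lower end of each nuclease gene, without strand; middle, deposited TPM of *grn* rows 1 and 2 per library on a log axis; right, NCU16971 as a percentage of *grn* TPM per library on a log axis. Points are libraries, red for 0 mM or mutant and blue for 7 mM or wild type. NCU16971 was 14.4% to 16.5% of *grn* in the wild type of Experiment 2 and 0.363% to 0.565% in the starved wild type of Experiment 1.

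The other 2 genes also overlap a neighbour. NCU09525 covers chromosome III 12871 to 14169 and shares 66 bp with NCU09524. NCU09524 was barely expressed, with 6.51 to 7.07 TPM at 0 mM and 1.146 to 1.3999 TPM at 7 mM. It rose 3.78-fold (adjusted p = 1.62e-05) and was not called because of the fold and level thresholds. On the other side, 141 bp away, lies NCU09526, which encodes a protein of possible lipase activity. NCU09526 had 58.1 to 67.4 TPM at 0 mM and 10.9 to 12.3 TPM at 7 mM, a 4.01-fold rise that lay on the threshold (3.91 to 4.17 when 1 library was left out). In Δ*nuc-1* NCU09526 had 5.80 to 10.2 TPM and in wild type 11.04 to 15.6 TPM, a ratio of 0.656 (adjusted p = 0.0561), while NCU09525 beside it was 28.9-fold lower.

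The *nuc-14* gene covers chromosome VI 1124166 to 1126773, a span of 2608 bp, and 1680 bp of it also belong to NCU09789 (*ad-8*, an adenine biosynthesis gene). Here the neighbours moved differently. NCU09789 had 185 to 218 TPM at 0 mM and 210 to 223 TPM at 7 mM, a ratio of 0.672 after rescaling (adjusted p = 0.000984) and 0.916 with TPM as deposited (adjusted p = 0.170). In Experiment 2 it had 442 to 550 TPM in Δ*nuc-1* and 427 to 595 TPM in wild type, a ratio of 1.05 (adjusted p = 0.760). Around *grn* and NCU16971, NCU01044 rose 1.71-fold in starvation (adjusted p = 0.000117), and NCU16972 had a ratio of 1.01 (1.39 with TPM as deposited). NCU10161, below *nuc-14*, stayed at or under 2.86 TPM in every library and passed the low-value filter only in Experiment 2.

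Set side by side across experiments, with no test, the starved wild-type cultures differed in level. After 4 h, NCU09525 averaged 1887 ± 249.8 TPM in Experiment 1 and 537 ± 312 TPM in Experiment 2 (SD, n = 3 each). The *grn* means were 3340 ± 513 TPM in Experiment 1 and 471 ± 138 TPM in Experiment 2, and those of *nuc-14* were 154 TPM in Experiment 1 and 34.9 TPM in Experiment 2 (coefficients of variation 14.6% and 57.3%). After 12 h, in the *mat a* wild type of Experiment 3, the means were 685 ± 263 TPM for NCU09525, 1632 ± 291 TPM for *grn* and 184 ± 17.5 TPM for *nuc-14*. In each of these groups *nuc-14* was lowest and did not overlap NCU09525 or *grn*. The order of NCU09525 and *grn* was not fixed: *grn* was above NCU09525 in all libraries of Experiments 1 and 3, and in the wild type of Experiment 2 NCU09525 was 0.893 to 1.43 times *grn*.

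Across the 18 libraries the genes with the profile most like NCU09525 were *gdp-1* (NCU10038, a glycerophosphoryl diester phosphodiesterase gene), *bet-6* (NCU03032, the betaine lipid synthase gene) and NCU09631, with an alkaline phosphatase domain. Pearson's r on log2(TPM + 1) was 0.996, 0.992 and 0.990 among 6992 genes compared. For *grn* they were NCU08017, *pho-3* (NCU08643, an acid phosphatase gene) and NCU02080, with r of 0.989, 0.987 and 0.987. For *nuc-14* they were NCU07486, whose product holds a LysM domain, NCU06603 and NCU02080, each with r of 0.988. Between the nuclease genes, r was 0.980 for NCU09525 and *grn*, 0.981 for *grn* and *nuc-14*, and 0.948 for NCU09525 and *nuc-14*, while NCU16971 had r between -0.13 and 0.087 with the other three. These values are descriptions, since the 18 libraries fall into 6 conditions of 3 experiments.

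The enzymes that act on nucleotides after a nuclease has cut formed a list of 6 genes. The list was drawn up with earlier results of these data known. The paper names *pho-2*, *pho-3*, NCU09631 and *inl-13* among the genes most raised by starvation, so the counts below are descriptions. In starvation all 6 were higher at an adjusted p under 0.05, against 34.3% of all genes tested. Of the 6, 4 were called higher, against 3.75% of all genes. The called genes were *pho-2* (368-fold), *pho-3* (286-fold), NCU09631 (210-fold) and *inl-13* (NCU04069, a bisphosphate nucleotidase gene), which was listed at 0 in all 7 mM libraries and had 135 to 169 TPM in the 0 mM libraries. The predicted 5′-nucleotidase gene NCU09659 rose 2.23-fold, and NCU05539, a predicted cyclic nucleotide phosphodiesterase gene, rose 2.64-fold. The median log2 fold change of the list was 7.10, beside 0.00199 over all genes. It rests in part on the 7.02 of *inl-13*, a value that depends on the 1 TPM added before taking logs.

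In Δ*nuc-1*, 5 of the 6 were lower at an adjusted p under 0.05, against 11.4% of all genes. Of the 6, 3 were called lower, against 0.821% of all genes. These were *pho-2*, 242-fold lower, *pho-3*, 170-fold lower, and NCU09631, 72.9-fold lower. NCU09659 was 2.43-fold lower and *inl-13* was 2.24-fold lower, and NCU05539 had a ratio of 1.02. In Δ*nuc-3* none of the 6 had an adjusted p under 0.05 with limma (1.41% of all genes were higher at this threshold and 0.312% lower). The largest ratio was that of *pho-2*, 2.64 (adjusted p = 0.0558), next to the 2.17 of *grn*. Like *grn*, *pho-2* was called with the robust spread and with the fit over 18 libraries. The paper, with DESeq2, lists both among the genes at least 2-fold higher in Δ*nuc-3*. For *pho-2* it also reports higher expression in Δ*nuc-3* and lower expression on *nuc-3* overexpression, both by RT-qPCR. It further reports binding of NUC-3 to the *pho-2* promoter in vitro.

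The 3 genes that share the annotation of *nuc-14* changed by smaller folds, and none was called. NCU09759 had 9.64 to 13.96 TPM at 0 mM and 5.86 to 6.30 TPM at 7 mM, a 1.46-fold rise (adjusted p = 0.0264, and 0.000449 to 0.0836 when 1 library was left out). In Δ*nuc-1* it had 1.82 to 2.69 TPM and in wild type 4.17 to 5.11 TPM, all below the 10 TPM level of a call. It was 1.79-fold lower in Δ*nuc-1* (adjusted p = 0.0422, and 0.0619 to 0.121 when 1 library was left out). In Δ*nuc-3* it had 39.8 to 44.5 TPM and in wild type 21.7 to 27.4 TPM, a ratio of 1.71 (adjusted p = 0.0462, and 0.0317 to 0.192 when 1 library was left out). NCU09759 thus had the same signs as *nuc-14* in the 3 comparisons, at lower folds. NCU03682 had 8.88, 24.7 and 10.3 TPM at 0 mM, against 21.9, 18.8 and 20.8 TPM at 7 mM, so replicate 2 at 0 mM lay above all libraries with phosphate. Its ratio was 0.528 (adjusted p = 0.0352), and 0.712 (adjusted p = 0.133) with TPM as deposited. Without replicate 2 at 0 mM the ratio was 0.337 (adjusted p = 5.01e-05), and with any other library left out the adjusted p was 0.0692 to 0.112. NCU00684 had a ratio of 0.889 in starvation (adjusted p = 0.0789) and 1.21 with TPM as deposited (adjusted p = 0.0101), and did not pass in either mutant.

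Nucleases of RNA processing and decay inside the cell went another way. Of 10 exonuclease genes of the exosome, Kem1 and related types, 9 were lower in starvation at an adjusted p under 0.05 (35.1% of all genes were), and none was called (3.59% of all genes were called lower). The exosome gene NCU02256 (Rrp6), which trims RNA from its end in the nucleus, fell 2.45-fold, and NCU01643, a nuclear exoribonuclease gene, fell 2.15-fold. The median log2 fold change of the 10 was -0.52 after rescaling and -0.08 with TPM as deposited, where 2 were higher and 4 lower (59.8% and 16.3% of all genes were) and where the median of all genes was 0.41. In Δ*nuc-1*, 4 of the 10 were higher at an adjusted p under 0.05 (11.3% of all genes were) and none was called (1.28% of all genes were called higher). They were led by NCU02256 at 3.00-fold, and 1 was higher with TPM as deposited (7.48% of all genes). In Δ*nuc-3* none passed with limma (1.41% of all genes were higher at an adjusted p under 0.05 and 0.312% lower).

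A wider list of 23 genes annotated as nucleases holds those 10 genes and the 3 that share the annotation of *nuc-14*. In starvation 3 were higher and 17 lower at an adjusted p under 0.05 (34.3% and 35.1% of all genes were), and none was called. Over all genes, 3.75% were called higher and 3.59% lower. With TPM as deposited 7 were higher and 6 lower (59.8% and 16.3% of all genes). The most abundant of them, NCU06678 (exonuclease Kem1), averaged 85.9 TPM over the 6 conditions and had a ratio of 0.883 in starvation (adjusted p = 0.0240) after rescaling and 1.20 (adjusted p = 0.00243) with TPM as deposited. In Δ*nuc-1*, 6 were higher and 1 lower (11.3% and 11.4% of all genes were). With TPM as deposited that balance turned, to 1 higher and 2 lower (7.48% and 17.1% of all genes). In Δ*nuc-3* 1 was higher, which was NCU09759 (1.41% of all genes were higher at this threshold and 0.312% lower). The list came from a partial set of annotations, so nuclease genes outside it were not analysed here.

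**Figure D4:**
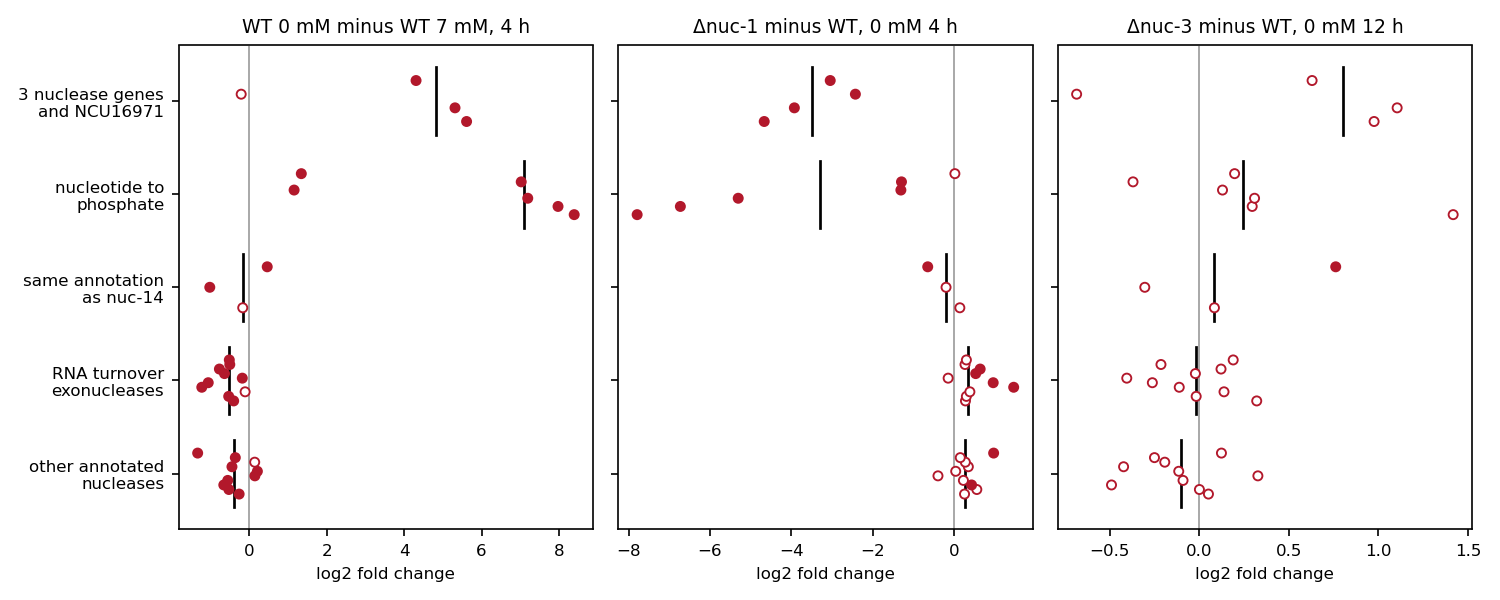
The log2 fold changes of the 3 nuclease genes with NCU16971 and of 4 lists of related genes in the 3 comparisons; each point is a gene, filled where the adjusted p was under 0.05, and vertical lines are medians. The last group leaves out genes shown in the 2 groups above it. In starvation the medians were 4.81 for the 4 genes described here, NCU16971 included, 7.10 for the nucleotide enzymes and -0.52 for the RNA turnover exonucleases. The median of the nucleotide enzymes rests in part on *inl-13*, listed at 0 in all 7 mM libraries.

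Of the regulators, *nuc-3* rose 18.3-fold in starvation and *nuc-2* rose 3.87-fold, just under the threshold for a call, which it passed with TPM as deposited and with upper-quartile rescaling. The level of *nuc-1* did not pass the test (ratio 1.04, adjusted p = 0.625), nor did those of *preg* (0.969) and *mdk-1* (1.04), the cyclin and kinase that hold NUC-1 in check. With TPM as deposited these 3 ratios were 1.41, 1.33 and 1.43, with adjusted p-values of 0.000339, 0.00344 and 0.00429. In Δ*nuc-1*, *nuc-2* was 4.13-fold lower and *nuc-3* 18.1-fold lower, along with the 3 nuclease genes and NCU16971. The ratio of *nuc-2* ran from 0.223 to 0.256 when 1 library was left out and missed the 4-fold threshold without wild-type replicate 1 or 2 or Δ*nuc-1* replicate 3. In Δ*nuc-3*, *nuc-2* was called higher at 3.00-fold (adjusted p = 0.00903), with 310.0, 347 and 220.1 TPM in Δ*nuc-3*, against 106, 85.7 and 102 TPM in wild type. Without wild-type replicate 3 its adjusted p was 0.0647. Replicate 3 of Δ*nuc-3*, the library with the lowest nuclease levels of its group, also had the lowest *nuc-2*.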

How the data were processed

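RNA of 18 poly(A)-selected libraries was analysed. Salmon version 1.4.0 was run by the authors on genome version 12 of strain OR74A, and the TPM it gave were deposited without counts, so the DESeq2 test of the study was replaced. Experiments differed in sequencer and read type, and Experiment 1 came from another centre than Experiments 2 and 3, so tests were made only within an experiment. Depth per library is unknown, and no counting interval is given. TPM weights reads by transcript length and depends on how reads of overlapping genes are shared out.

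Samples were grouped by their labels. Rows of a gene were summed, libraries were rescaled by median of ratios within the 6 libraries of a comparison, and log2(TPM + 1) was fitted with limma version 3.58.1 (eBayes with trend, R version 4.3.3) for genes that averaged 1 TPM or more in one of the conditions. P-values were adjusted by Benjamini-Hochberg. P-values measure the spread between 3 cultures of one strain, and an exact permutation test of 3 against 3 cannot go below 0.1. Of 9774 genes, 9773 were found in the RefSeq table of assembly NC12. Python version 3.11.15, pandas version 2.3.3 and matplotlib version 3.10.9 were used, and the procedure was tested on simulated data.

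The genes and lists were chosen with earlier results of these data known. The genes named were the 3 nuclease genes and NCU16971, the gene on either side of each, the 3 genes most correlated with NCU09525, *grn* and *nuc-14*, the nucleotide enzymes, the regulators, and of the annotated nucleases the most abundant and any called; other members of these lists were named after their values were seen. Alternatives were TPM as deposited, upper-quartile rescaling, a pseudocount of 0.1, no filter on low values, limma with a robust spread, 1 fit over 18 libraries, the replicate number as a block, the fold threshold on limma's value, the top row of each gene, and each library left out. Promoter and protein sequences were not analysed here.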

Additional observations from a re-analysis of the deposited data

How the results depend on the processing

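The calls of the 3 nuclease genes in starvation, and of these and NCU16971 in Δ*nuc-1*, held under the 9 other settings and with each library left out. Of these 4 genes the number called in Δ*nuc-3* was 0, except for 1, *grn*, with limma's robust spread and with 1 fit over all 18 libraries; there its log2 fold change of 1.10 had adjusted p-values of 0.0495 and 0.00482. Over the alternatives of *grn*, replicates left out included, adjusted p ran from 0.00482 to 0.274. The count of all genes called was 616 in starvation, with 702 on TPM as deposited. That setting moved the share called higher to 68.8% in starvation, against 51.1% after rescaling, and to 43.2% in Δ*nuc-1*, against 60.9%. With 1 library left out, genes called ran from 86 to 223 in Δ*nuc-1* (169 with all; 86 without replicate 3 of Δ*nuc-1*) and from 5 to 47 in Δ*nuc-3* (58 with all; 5 without wild-type replicate 3). In these fits the condition of 2 libraries is assumed to vary like the other. The cause was not tested.

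No pairing by replicate number was seen: deviations of same-numbered libraries had correlations from -0.56 to 0.047. With 3 libraries per condition these values cannot exclude a pairing. With the replicate block, genes called were 616 in starvation, 164 in Δ*nuc-1* and 3 in Δ*nuc-3*, and *grn* in Δ*nuc-3* had an adjusted p of 0.274; the block changed no call of these 4 genes. Of the other genes named, 9 of 1588 values under other settings newly passed the threshold for a call and 12 no longer did. TPM holds no depth, so low values such as those of NCU09524 and *nuc-14* at 7 mM have an unknown counting error.

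The sign turned in 42 values of 23 results, none of them called, whose log2 fold changes as reported were at most 0.40 in size. With TPM as deposited, log2 fold changes in starvation were 0.21 for NCU16971, 0.038 for NCU04009, 0.33 for NCU00812, 0.26 for NCU06678, 0.27 for NCU00684 and 0.39 for *preg* (0.0076 with upper-quartile rescaling). In Δ*nuc-1* they were -0.091 for NCU09789, -0.16 for NCU05539, -0.034 for NCU00684 and -0.18 for *mdk-1*. With 1 fit over 18 libraries, NCU05539 was at -8.6e-05 and *mdk-1* at -0.020 in Δ*nuc-1*. With the top row of a gene, NCU00684 was at 0.98 in starvation and -1.79 in Δ*nuc-1*. With 1 library left out, the starvation value ran from -0.018 to 0.059 for NCU16972, from -0.011 to 0.12 for *nuc-1* and from -0.031 to 0.13 for *mdk-1*. In Δ*nuc-1* it ran from -0.25 to 0.13 for NCU01044, from -0.24 to 0.74 for NCU10161, from -0.092 to 0.29 for NCU09789, from -0.070 to 0.12 for NCU05539, from -0.23 to 0.43 for NCU00684, from -0.42 to 0.056 for NCU03682 and from -0.034 to 0.035 for *mdk-1*. In Δ*nuc-3* it ran from -0.069 to 0.24 for NCU09524, from -0.013 to 0.071 for NCU16972, from -0.69 to 0.052 for NCU09789, from -0.058 to 0.57 for *pho-3*, from -0.053 to 0.0072 for NCU00693, from -0.071 to 0.018 for NCU08026 and from -0.15 to 0.21 for NCU00684. The cause was not tested.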
